A study of Mus musculus with 6 samples.

Results

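The proteins of the mitochondrial ribosome were examined in cultured mouse skin fibroblasts with and without added endothelin 1 (Et1), a peptide hormone best known for narrowing blood vessels. The members were all genes with a single-symbol probe set whose symbol starts with Mrpl or Mrps and a number, which gave 76 of the 18193 genes that the array names this way, 47 of the large subunit (Mrpl) and 29 of the small subunit (Mrps), with 156 probe sets among 45037. Each gene was represented by its brightest probe set over the 6 arrays. All 76 passed the filter on dim probe sets, which was set on the mean over all 6 arrays, and 11666 genes in all were tested.

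The mitochondrial ribosome is a separate machine from the ribosome of the cytosol and makes the few proteins that mitochondrial DNA encodes, all of them parts of the respiratory chain and ATP synthase. Its RNA comes from mitochondrial DNA, while its proteins are encoded in the nucleus, made in the cytosol and imported. Some of its proteins belong to families shared with bacterial ribosomes and others were added in the mitochondrial line. The transcription factors NRF1 and GABPA are known to act on many nuclear genes for mitochondria.

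The arrays were Affymetrix Mouse430_2, which read messenger RNA with 1 or more probe sets per gene. There were 3 Et1 arrays, from primary dermal fibroblasts given 100 nM synthetic Et1 for 24 hours, and 3 control arrays from fibroblasts with nothing added. Per the labels all cultures came from the dermis of B6 pups aged 0 to 2 days, of both sexes, at passage 6, whereas the text on the series gives an age of 0 to 3 days and a division of the cultures by passage 5. The cells grew out of skin pieces, with no sort described, and were divided into treated and untreated cultures, but no label ties a numbered Et1 array to the control array of that number or to an animal. The p-values therefore measure the spread between these arrays.

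Signals were scaled to a common 2% trimmed mean of 139, and the unscaled trimmed means ran from 91.7 to 179. The arrays also fall into 2 sets by the Bacillus spike-in control probe sets, a technical readout. Their mean log2 signal was 3.45 to 3.57 on Et1 replicate 2 and control replicates 1 and 2 (the low set), and 4.75 to 5.64 on Et1 replicates 1 and 3 and control replicate 3 (the high set). The 3' to 5' ratio of the Gapdh control probe sets was 0.677 to 0.757 on Et1 arrays and 0.728 to 0.775 on control arrays. Of 12 dermal fibroblast markers present, 11 passed the filter, and the summed signal of the list was 25006 to 40728 on Et1 arrays and 32747 to 48975 on control arrays. Among them Prrx1 fell, with 975 ± 58.9 in Et1 and 1849 ± 70.8 in control (SD, n = 3 each, adjusted p = 0.0307 in limma), and Pdgfrb was below every control array on each Et1 array without passing the test (log2 fold change -1.14, adjusted p = 0.0615 in limma). The other fibroblast markers past the filter overlapped between the groups. Of these, Vim and Fn1 had log2 fold changes of 0.02 and 0.12, and Sparc and Dcn -0.21 and -0.26. Col1a1, Col1a2, Col3a1, Pdgfra and Thy1 stood at -0.93, -0.43, -1.26, -0.50 and -1.18. The summed signal of 5 smooth muscle or pericyte markers was 1005 to 1433 on Et1 arrays and 1992 to 2827 on control arrays. Most of that sum was Cnn1, with 929 ± 180 in Et1 and 2064 ± 304 in control (SD, n = 3 each, adjusted p = 0.0510 in limma). Myh11 was also lower on every Et1 array (log2 fold change -0.73), while Des, Rgs5 and Cspg4 overlapped between the groups, at -0.07, 0.07 and -0.27. For the adipocyte markers, of which 1 of 4 passed the filter, the sum was 135 to 141 on Et1 arrays and 280 to 378 on control arrays. The adipocyte marker past the filter, Fabp4, fell (log2 fold change -1.44, adjusted p = 0.0258 in limma). The part of these shifts in the results below was not tested, and in bulk RNA fewer cells of a type and less RNA per cell cannot be told apart.

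Most mitochondrial ribosomal protein genes had slightly higher signals in Et1 cultures, but no single gene passed the test. Of the 76 members, 62 (81.6%) had a higher mean log2 signal with Et1 and 14 a lower one, while among all 11666 tested genes 55.7% were higher. The median log2 fold change of the members was 0.20, with quartiles of 0.06 and 0.36, and that of all tested genes was 0.05. With limma (Benjamini-Hochberg over 22519 probe sets, threshold 0.05), 0 of 76 members were called, against 0.411% of tested genes (0.137% higher and 0.274% lower). With the replicate number as a block 0 members were called too, against 2.92% of tested genes. The smallest adjusted p of a member was 0.159. At an unadjusted p under 0.05, 12 members (15.8%) were higher and 1 (1.32%) lower, where all genes gave 6.93% higher and 6.53% lower. In simulated arrays of this comparison with 22519 probe sets, limma detected 1 of 50 planted changes of 1.5-fold. The rate for probe sets as bright as those of the members, with mean signals of 145 to 1109, was not tested.

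The shift was not the same on every array. Relative to each gene's control mean, the median member stood at 0.24, 0.10 and 0.28 on the log2 scale on Et1 replicates 1, 2 and 3, and at -0.10, -0.09 and 0.20 on control replicates 1, 2 and 3. The third control array thus lay above the second Et1 array, and the groups overlapped. On control replicate 3, 56 of 76 members were above both other controls, which held for 41.3% of all tested genes. All 3 Et1 signals lay above control replicates 1 and 2 for 40 members (52.6%), against 23.1% of all tested genes.

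**Figure D1:**
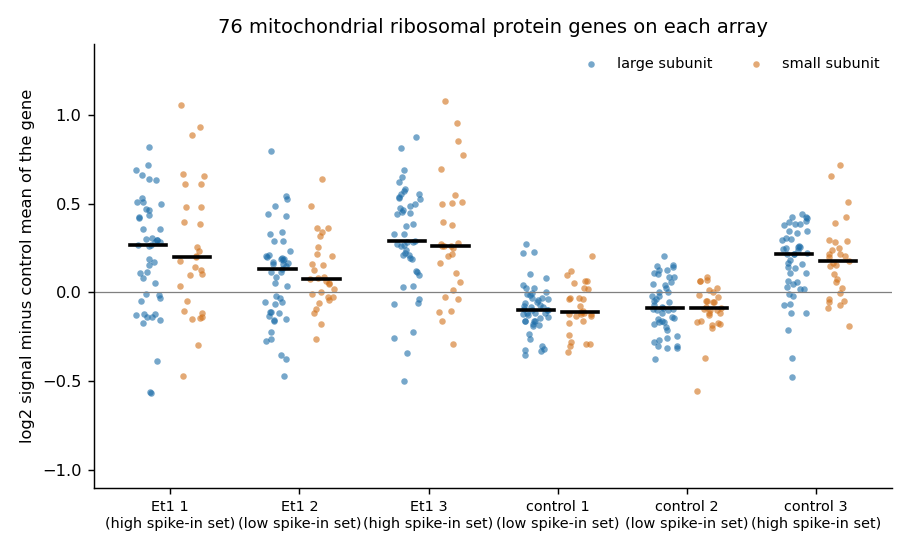
Log2 signal of each member minus its mean over the control arrays, for the 3 Et1 arrays and then the 3 control arrays; points are genes, coloured by subunit, and bars are medians over the genes of each subunit. Control replicates 1 and 2 lie below the other 4 arrays, and control replicate 3 lies between the Et1 arrays.

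The high spike-in set held 2 Et1 arrays and 1 control array, so it moved with this pattern. With the group in the fit, the high set was above the low set for 58 of 76 members, by a median of 0.22 on the log2 scale, against 0.04 for all tested genes. Within the low set the median member was 0.18 higher in the Et1 array than in the controls, against 0.03 for all tested genes, and 56 of 76 were higher. Within the high set the median member was 0.09 higher than in the 1 control array, against 0.04 for all tested genes, with 49 of 76 higher. The shares of all tested genes that were higher within each set are not given here. In both sets alike 44 members were higher and 15 lower with Et1, and 17 differed in direction. Blocked by spike-in set, limma called 4 members (5.26%), all higher in Et1 cultures, where 4.47% of tested genes were called, 1.75% higher and 2.72% lower. These were Mrps17, Mrpl38, Mrpl45 and Mrps22.

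**Figure D2:**
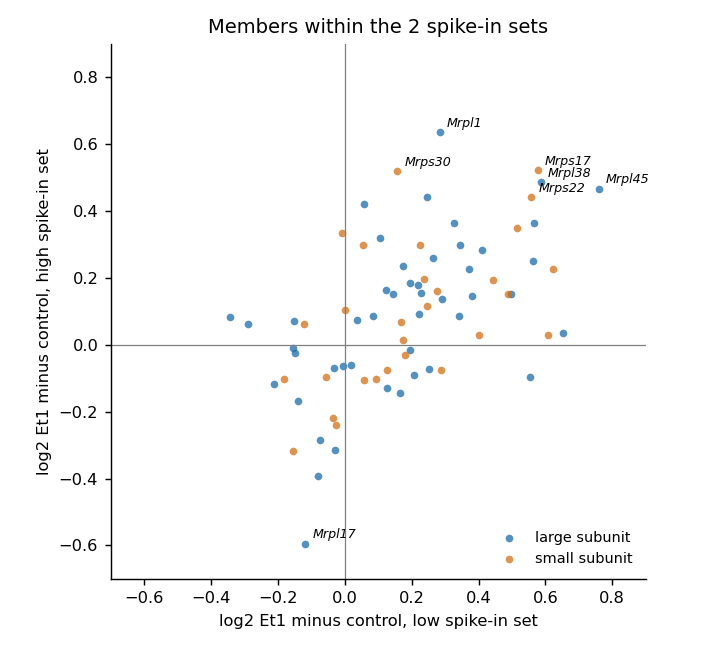
Log2 difference of Et1 minus control for each member within the low spike-in set (horizontal axis) and within the high set (vertical axis), coloured by subunit. Mrps17, Mrpl38, Mrpl45 and Mrps22 lie to the upper right, above 0.40 in both sets, and Mrpl17 lies lowest, at -0.12 in the low set and -0.60 in the high set.

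Mrpl38, a protein of the central protuberance of the large subunit that has no counterpart in bacteria, separated the groups by the most relative to its error. Its signals were 384, 356 and 363 on Et1 arrays, against 227, 247 and 267 on control arrays. The groups did not overlap. The log2 fold change was 0.58 (SE 0.15, adjusted p = 0.159 in limma), and 0.54 blocked by spike-in set (adjusted p = 0.0341 in limma). Its brightest probe set is one whose probes can match several transcripts, and its 1 other tested probe set, with mean signals of 45.9 ± 6.45 in Et1 and 48.6 ± 5.24 in control (SD, n = 3 each), had a log2 fold change of -0.09.

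Mrpl45, which anchors the ribosome to the mitochondrial inner membrane where new proteins are inserted, had signals of 430, 619 and 514 on Et1 arrays, against 337, 397 and 340 on control arrays. The groups did not overlap, and the replicates numbered 2 were the highest of each group. The log2 fold change was 0.53 (SE 0.18, adjusted p = 0.278 in limma), and 0.61 blocked by spike-in set (adjusted p = 0.0341 in limma).

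Mrps17, a small subunit protein of a family shared with bacteria, had signals of 1155, 779 and 1172 on Et1 arrays, against 512, 533 and 810 on control arrays. Control replicate 3 exceeded Et1 replicate 2, so the groups overlapped. The log2 fold change of 0.75 (SE 0.23, adjusted p = 0.245 in limma) was 0.55 blocked by spike-in set (adjusted p = 0.0148 in limma). Mrps22, a mitochondrial addition to the small subunit in which mutations cause a mitochondrial disease in humans, overlapped in the same way. Its signals were 790, 548 and 730 on Et1 arrays, against 349, 398 and 559 on control arrays. The log2 fold change was 0.68 (adjusted p = 0.265 in limma), and 0.50 blocked by spike-in set (adjusted p = 0.0367 in limma).

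Mrpl24, which sits near the exit of the tunnel through which the new protein leaves, had signals of 988, 1033 and 1133 on Et1 arrays, against 615, 791 and 822 on control arrays. Mrpl50, a mitochondrial addition, had 514, 490 and 506 on Et1 arrays, against 338, 326 and 429 on control arrays. Neither overlapped between the groups, with log2 fold changes of 0.51 and 0.48 (adjusted p = 0.245 and 0.275 in limma). In all, the groups did not overlap for 17 members, against 19.2% of tested genes: 14 (18.4%) had every Et1 signal above every control signal, against 10.7% of all tested genes, and 3 (3.95%) had every one below, against 8.49%. Those not described elsewhere were Mrpl34, Mrpl35, Mrpl43, Mrpl58 and Mrps5, all higher, with log2 fold changes of 0.45, 0.36, 0.29, 0.26 and 0.34 and adjusted p in limma from 0.379 to 0.529.

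**Figure D3:**
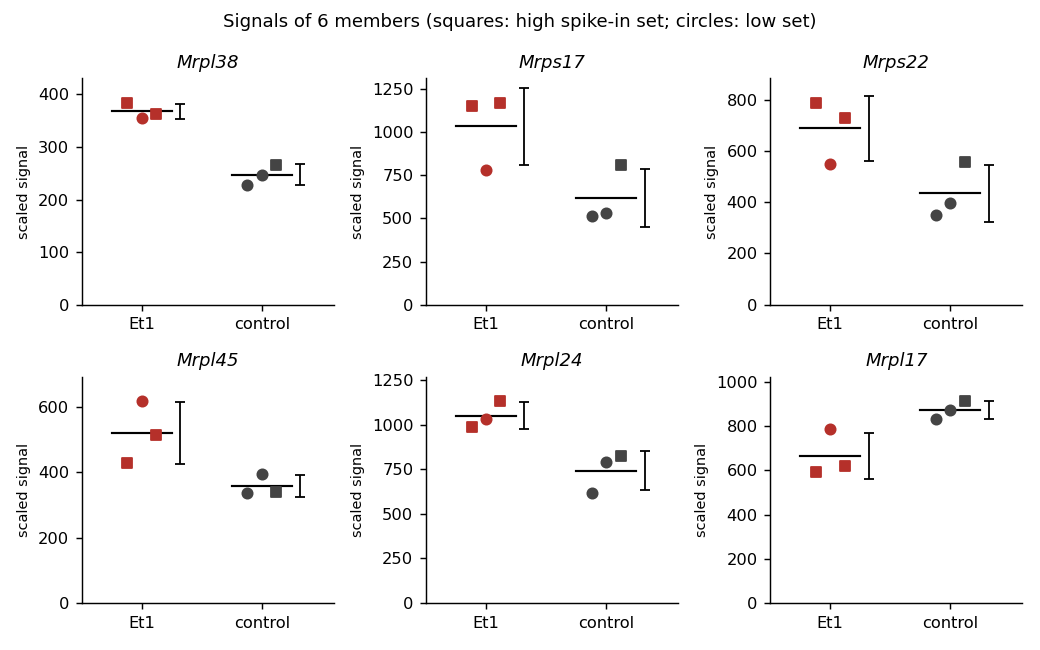
Scaled signals of 6 members on the 3 Et1 arrays (red) and the 3 control arrays (grey), with the mean as a bar and the SD beside it (n = 3 each); squares are the high spike-in set and circles the low set. Mrpl38, Mrpl45 and Mrpl24 do not overlap between the groups with Et1 higher, Mrpl17 does not overlap with Et1 lower, and Mrps17 and Mrps22 overlap through control replicate 3.

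The 3 members with every Et1 signal below every control signal were Mrpl17, Mrpl20 and Mrpl52. Mrpl17, which sits beside the exit of the protein tunnel, was the 1 member lower at an unadjusted p under 0.05. Its signals were 593, 786 and 619 on Et1 arrays, against 833, 874 and 915 on control arrays, a log2 fold change of -0.40 (SE 0.16, adjusted p = 0.35 in limma). Its 2 other tested probe sets, both dim, had log2 fold changes of 0.25 and 0.36, and the mean over its probe sets was 0.07, so its direction depends on the probe set. Mrpl52, a large subunit addition, had 698, 874 and 783 on Et1 arrays, against 912, 928 and 900 on control arrays. Both of its other tested probe sets were also lower on every Et1 array, with log2 fold changes of -0.29 and -0.30. Mrpl20, which in bacteria helps the large subunit assemble, had 853, 833 and 734 on Et1 arrays, against 946, 987 and 858 on control arrays.

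The regions before the gene starts are shown because most members shifted the same way by a small amount. RefSeq windows (GRCm38.p6) of 250 bases before to 50 bases after a start were found for 67 of 76 members, 73 windows in all. Of 6 motifs searched on both strands, 3 belong to factors known for nuclear genes of mitochondria. The motif CCGGAAG, bound by GABPA and other ETS factors, was in 34.2% of member windows, against 16.6% of windows of tested genes and 8.86% of all 32851 windows. The NRF1 motif was in 16.4%, 9.65% and 4.60%, and the YY1 motif in 6.85%, 1.85% and 0.852%, in that order. The CCAAT box (CCAAT) was in 39.7% of member windows and 37.3% of windows of tested genes, the E-box (CACGTG) in 9.59% and 9.83%, and the TATA box (TATAAA) in 6.85% and 7.76%. Matches of the ETS, NRF1 and YY1 motifs did not overlap each other in any member window. These are matches of letters, not measured binding, and the median log2 fold change was 0.19 for the 25 genes with CCGGAAG and 0.20 for the 42 without, and 0.18 for the 12 with the NRF1 motif and 0.20 for the 55 without. It was 0.29 for the 5 with the YY1 motif and 0.19 for the 62 without. For the other motifs it was 0.15 for the 26 genes with CCAAT and 0.26 for the 41 without, 0.08 for the 5 with CACGTG and 0.20 for the 62 without, and 0.15 for the 5 with TATAAA and 0.20 for the 62 without.

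The windows of 5 members follow, 5′ to 3′ on the gene's strand, with matches of those 3 motifs in capitals. Mrps22 (chr9:98601630-98601929, minus strand), Mrpl45 (chr11:97315466-97315765, plus strand) and Mrps17 (chr5:129715247-129715546, plus strand) are shown as members called in the fit blocked by spike-in set. Mrpl17 (chr7:105811038-105811337, minus strand) is shown as the member with the lowest fold change, and Mrps18a (chr17:46110754-46111053, plus strand) as one that holds a YY1 match. Mrps22 has 1 ETS match, Mrpl45 has 3 NRF1 matches, and Mrps17 has none in this window. Mrpl17 has 1 ETS and 1 NRF1 match, and Mrps18a has 1 ETS and 1 YY1 match.
Mrps22: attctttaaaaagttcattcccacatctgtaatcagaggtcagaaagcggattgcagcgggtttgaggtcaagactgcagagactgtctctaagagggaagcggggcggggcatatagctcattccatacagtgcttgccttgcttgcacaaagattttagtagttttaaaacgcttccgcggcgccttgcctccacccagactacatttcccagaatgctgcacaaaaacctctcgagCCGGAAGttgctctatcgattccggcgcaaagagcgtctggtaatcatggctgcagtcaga
Mrpl45: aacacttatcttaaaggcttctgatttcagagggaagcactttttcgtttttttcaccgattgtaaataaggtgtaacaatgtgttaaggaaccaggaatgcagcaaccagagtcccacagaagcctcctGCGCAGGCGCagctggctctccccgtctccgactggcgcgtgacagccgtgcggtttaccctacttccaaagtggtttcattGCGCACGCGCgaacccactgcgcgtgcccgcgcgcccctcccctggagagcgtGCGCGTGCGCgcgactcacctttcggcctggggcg
Mrps17: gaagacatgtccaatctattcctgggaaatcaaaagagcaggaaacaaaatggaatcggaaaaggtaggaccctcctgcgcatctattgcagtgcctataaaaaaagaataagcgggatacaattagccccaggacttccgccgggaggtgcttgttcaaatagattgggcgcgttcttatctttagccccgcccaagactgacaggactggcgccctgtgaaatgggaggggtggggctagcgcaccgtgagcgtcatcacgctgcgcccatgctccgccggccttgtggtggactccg
Mrpl17: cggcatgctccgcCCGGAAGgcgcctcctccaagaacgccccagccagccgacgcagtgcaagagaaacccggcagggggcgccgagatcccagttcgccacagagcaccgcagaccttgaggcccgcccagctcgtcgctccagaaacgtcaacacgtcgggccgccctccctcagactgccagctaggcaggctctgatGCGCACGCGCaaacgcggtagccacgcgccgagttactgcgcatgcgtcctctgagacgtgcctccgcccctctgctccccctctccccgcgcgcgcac
Mrps18a: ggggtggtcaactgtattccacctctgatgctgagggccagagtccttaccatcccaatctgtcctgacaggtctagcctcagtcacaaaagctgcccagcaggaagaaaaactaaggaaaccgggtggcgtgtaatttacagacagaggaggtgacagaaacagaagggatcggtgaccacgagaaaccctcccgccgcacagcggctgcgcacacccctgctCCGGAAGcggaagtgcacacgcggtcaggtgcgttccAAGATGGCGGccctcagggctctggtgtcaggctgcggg

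The large and the small subunit were then compared, since both are needed in equal numbers to build a ribosome. In both, most members had higher means with Et1: 39 of 47 large subunit members (83.0%) and 23 of 29 small subunit members (79.3%). Among all tested genes 55.7% were higher. The median log2 fold change was 0.20 in the large and 0.25 in the small subunit, a difference of -0.05. Taken array by array, relative to each gene's control mean, the gap between the subunit medians ran the other way, at 0.05 ± 0.02 on Et1 arrays and 0.02 ± 0.02 on control arrays (SD, n = 3 each). The sign of the difference is therefore not settled, and it was also 0.02 within each spike-in set, 0.03 without Et1 replicate 2 and 0.02 without control replicate 3. At an unadjusted p under 0.05, 8 large and 4 small subunit members were higher, and 1 and 0 were lower.

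**Figure D4:**
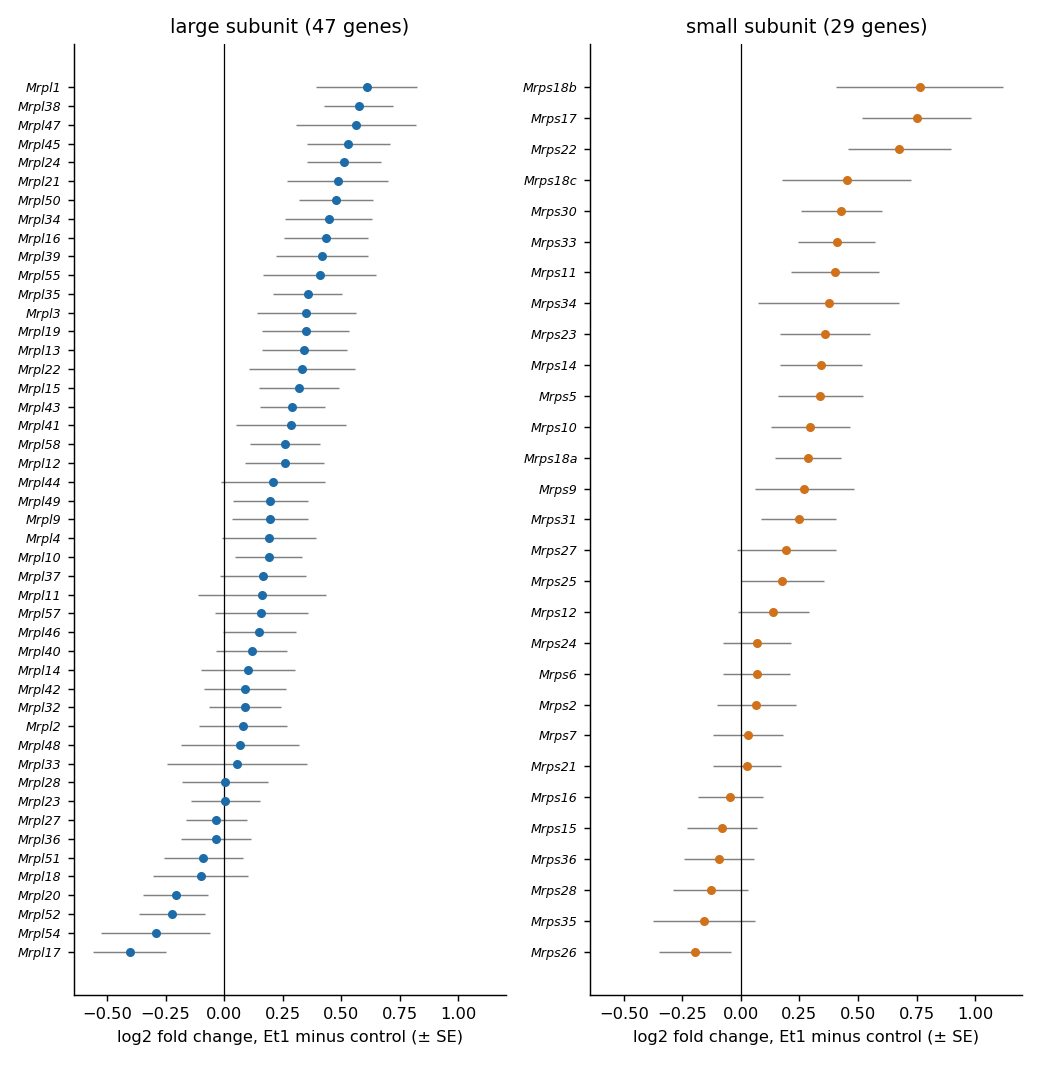
Log2 fold change of Et1 minus control for every member, large subunit at left and small subunit at right, with the standard error from limma as a bar (3 arrays per group). Values run from -0.40 for Mrpl17 to 0.61 for Mrpl1 in the large subunit, and from -0.20 for Mrps26 to 0.76 for Mrps18b in the small subunit.

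Names and places differ for a few members. Mrps18a and Mrps30 carry small subunit names but sit in the large subunit in mammals, and Mrps36 is now known as a part of the oxoglutarate dehydrogenase complex. Mrps30 had 538, 384 and 514 on Et1 arrays, against 357, 332 and 367 on control arrays, and did not overlap between the groups. With Mrps18a and Mrps30 counted as large subunit the medians were 0.20 for 49 large and 0.22 for 26 small subunit members. Mrps36 had 418 ± 17.9 in Et1 and 448 ± 49.6 in control (SD, n = 3 each).

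The 3 Mrps18 genes are homologs of the bacterial S18 gene, and all 3 had higher means with Et1. Mrps18a had 474, 418 and 428 on Et1 arrays, against 351, 364 and 366 on control arrays, with no overlap. Mrps18b had 783, 419 and 794 on Et1 arrays, against 337, 256 and 618 on control arrays. Mrps18c had 540, 393 and 700 on Et1 arrays, against 306, 344 and 550 on control arrays. Mrps18b and Mrps18c overlapped between the groups, with the arrays of the high spike-in set above those of the low set in each group. Their log2 fold changes were 0.76 and 0.45, and 0.43 and 0.22 blocked by spike-in set.

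Members of the same part of the ribosome did not all lie together. Mrpl10, Mrpl11 and Mrpl12 form the stalk that recruits translation factors, and Mrpl12 is also known to bind the mitochondrial RNA polymerase. Their log2 fold changes were 0.19, 0.16 and 0.26 (adjusted p = 0.635, 0.844 and 0.58 in limma). Mrpl11 had 668, 386 and 681 on Et1 arrays, against 458, 403 and 679 on control arrays, so its arrays again split by spike-in set, and its value blocked by that set was -0.08. Around the tunnel exit, Mrpl24, Mrpl45, Mrpl47 and Mrpl22 were at 0.51, 0.53, 0.56 and 0.33, Mrpl23 at 0.00 and Mrpl17 at -0.40. The other tested probe set of Mrpl47 was dim, with mean signals of 37.2 in Et1 and 47.6 in control, and stood at -0.36.

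Classed by the unified ribosome names, proteins of bacterial families and mitochondrial additions had close shares of higher members. Of 44 members of bacterial families 36 had higher means with Et1 (median log2 fold change 0.19), and of 30 additions 25 did (median 0.23). Mrps18b was counted as an addition despite its bacterial homolog, Mrps18c as a bacterial family member, and Mrps18a and Mrps36 in neither class. Among the additions Mrps33 had 730, 708 and 789 on Et1 arrays, against 510, 500 and 683 on control arrays, with no overlap and a log2 fold change of 0.41. Mrpl39 had 1141 ± 152 in Et1 and 865 ± 213 in control (SD, n = 3 each), and Mrpl57 982 ± 113 and 894 ± 231, and both overlapped. Mrpl54 and Mrps26 stood at -0.29 and -0.20, and Mrps35 at -0.16. Of the members of bacterial families, Mrps14 was at 0.34 with no overlap between the groups, Mrps6 at 0.07 and Mrps28 at -0.13. Mrpl51, another addition, had 1069 ± 78.2 in Et1 and 1149 ± 220 in control (SD, n = 3 each).

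Other probe sets of the same genes gave a partial repeat of these values on the same arrays. Of 127 tested probe sets of members, 100 were higher and 27 lower in Et1 cultures, and 0 were called by limma. Of 35 members with more than 1 tested probe set, 26 had all of them in the same direction. The 9 with mixed directions were Mrpl1, Mrpl17, Mrpl28, Mrpl33, Mrpl38, Mrpl47, Mrpl48, Mrps2 and Mrps25. Mrpl1, whose bacterial relative forms a mobile arm of the ribosome, had 199, 129 and 199 on Et1 arrays, against 106, 106 and 128 on control arrays, in its brightest probe set (log2 fold change 0.61), and -0.06 in its other tested one.

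Genes that act with the mitochondrial ribosome were read on the same arrays and mostly had higher means too. Of 24 tested genes of mitochondrial ribosome assembly and RNA modification, 23 had higher means with Et1 (median log2 fold change 0.30). Of these genes 0 were called by limma, and 7 were higher and 0 lower at an unadjusted p under 0.05, against 6.93% and 6.53% of all tested genes. Rpusd4, a pseudouridine synthase of mitochondrial ribosomal RNA, had 175, 76.6 and 148 on Et1 arrays, against 23.7, 25.5 and 79.3 on control arrays. Its groups overlapped, and 2 of the control signals lay below the filter value of 41.0, so the size of its fold change is uncertain. It was not called (adjusted p = 0.201 in limma), but was called higher when blocked by spike-in set (adjusted p = 0.0205 in limma). Gtpbp10 and Mtg1, GTPases of large subunit assembly, did not overlap between the groups, with log2 fold changes of 0.61 and 0.65 (adjusted p = 0.255 and 0.293 in limma).

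Of 18 tested genes that maintain or transcribe mitochondrial DNA or process its RNA, 16 had higher means with Et1, with a median of 0.21 and 0 called by limma. Twnk, the mitochondrial DNA helicase, had 141, 144 and 132 on Et1 arrays, against 92.7, 94.2 and 100.2 on control arrays, a clear gap at a log2 fold change of 0.54 (adjusted p = 0.228 in limma). Ssbp1, which coats single-stranded mitochondrial DNA, had 1420 ± 276 in Et1 and 944 ± 192 in control (SD, n = 3 each). It was not called (adjusted p = 0.288 in limma), but was called when blocked by spike-in set (adjusted p = 0.0493 in limma). Tbrg4, which acts on mitochondrial RNA, stood at 0.49. The 2 genes of this list with lower means were Polrmt, the mitochondrial RNA polymerase, and Polg, at -0.31 and -0.22. Both overlapped between the groups. Of 12 tested mitochondrial translation factors, 10 had higher means, with a median of 0.20 and 0 called by limma. Slirp and Lrpprc, partners that hold mitochondrial messenger RNA, stood at 0.30 and 0.27, and Mrrf, the recycling factor, at 0.33.

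Of 5 tested ribosome proteins and partners without an Mrp name, 4 had higher means with Et1, with a median of 0.28 and 0 called by limma. Chchd1, a small subunit protein, had 1181 ± 88.5 in Et1 and 930 ± 144 in control (SD, n = 3 each). Oxa1l, which inserts the products into the inner membrane, stood at 0.49 and Gadd45gip1 at 0.28, while Dap3, a GTP-binding small subunit protein, stood at -0.21. Of 8 tested regulators of nuclear genes for mitochondria, 5 had higher means, with a median of 0.03. Nrf1 and Gabpa, whose motifs were searched above, stood at -0.01 and -0.16, and Gabpb1 at 0.10 (adjusted p = 0.986, 0.75 and 0.844 in limma). Myc, a growth factor-induced transcription factor, had 705, 801 and 804 on Et1 arrays, against 489, 486 and 582 on control arrays, with no overlap. Its log2 fold change was 0.57 (adjusted p = 0.162 in limma), and it was called blocked by spike-in set (0.54, adjusted p = 0.0349 in limma).

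The cytosolic ribosomal proteins, which build the other ribosome of the cell, mostly had higher means as well. Of 42 tested genes matched by symbol, 40 had higher means with Et1 (median log2 fold change 0.16) and 0 were called by limma. Without Rps19bp1, a binding protein that the symbol rule also took in, 39 of 41 were higher, with a median of 0.16. Rps19, Rpl13a and Rps14 stood at 0.23, 0.22 and 0.25. The order of the arrays for this list was not that of the mitochondrial set. Relative to the control mean the median cytosolic gene stood at 0.31, 0.17 and -0.01 on Et1 replicates 1, 2 and 3, and at -0.05, 0.01 and 0.06 on control replicates 1, 2 and 3, so Et1 replicate 3, the highest array for the mitochondrial members, was among the lower arrays here. The median signal of their probe sets was 6727, and saturation was not tested.

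**Figure D5:**
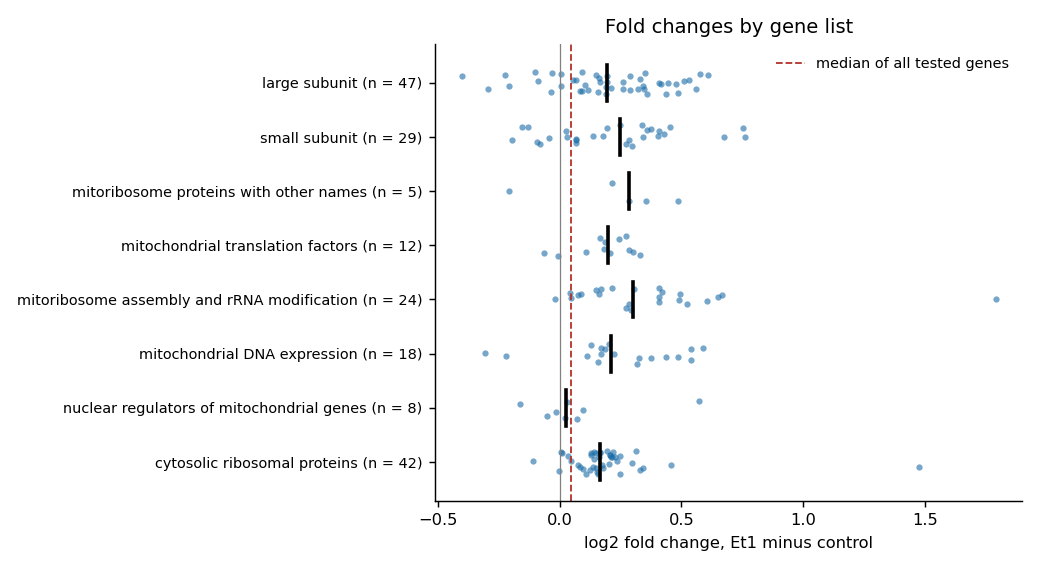
Log2 fold change of Et1 minus control for each gene of the subunits and of the related lists; points are genes, black bars are list medians, and the dashed line is the median of all tested genes, 0.05. Each list except the nuclear regulators, at 0.03, has its median to the right of that line, between 0.16 for the cytosolic ribosomal proteins and 0.30 for the assembly genes.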

How the data were processed

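The values used were the deposited intensity signals, 1 per probe set and array, which the authors made with MAS5 (named in the submitters' processing notes); neither version nor target is given in the sources used here. Arrays were brought to the same 2% trimmed mean, 139. On each array zeros (4 in all) took the lowest value above 0 before the log2 step, and nothing was added. Of 45101 probe sets, 64 controls were left out, and 22519 with a mean scaled signal of at least 41.0 were tested. Arrays were named and grouped by the labels. Et1 was compared with control with R 4.3.3 and limma 3.58.1, using lmFit and a trended eBayes without a block, and p-values were adjusted over all tested probe sets by Benjamini-Hochberg.

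Genes were named from the platform annotation, only from probe sets with 1 symbol; all 76 members were found in the RefSeq gene table (GRCm38.p6). Signals carry no counts, so precision rests on how many arrays there are and on their spread, and signals of different probe sets were not compared as levels. Members, lists, motifs and the split into spike-in sets, divided at the widest gap in mean Bacillus control signal, were chosen with earlier results of these data known. Lists were described by counts and medians, with no test of a list.

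Genes named were, in each subunit, the 4 members with the smallest unadjusted p in each direction and the 3 with the brightest probe sets, members whose groups did not overlap or whose tested probe sets differed in sign, the Mrps18 and stalk proteins, and 3 genes per related list by smallest p. Mrpl22, Mrpl23, Dap3, Nrf1, Polrmt and Polg were chosen after their values were seen. On simulated data of this comparison with 22519 probe sets, limma called 9 of 50 planted at 2-fold and 40 of 50 at 4-fold.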

Additional observations from a re-analysis of the deposited data

How the results depend on the processing

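Under 18 planned settings and the 2 spike-in sets taken apart, the median of the members and of each subunit stayed above 0. The median of the members was 0.16 to 0.31 with each array left out, the highest without control replicate 3, and 0.0864 within the high spike-in set. For the large subunit these values were 0.16 to 0.32 and 0.0876, and for the small subunit 0.18 to 0.30 and 0.0680. The gap of the subunit medians, large minus small, was -0.0246 to 0.0337 with each array left out, positive without Et1 replicate 2 and without control replicate 3, 0.0211 within the low and 0.0196 within the high spike-in set. It was -0.0774 without probe sets ending in _x_at or _s_at, -0.0018 with probe sets averaged, -0.0046 blocked by spike-in set and -0.0244 with Mrps18a and Mrps30 as large subunit. Members that did not overlap between the groups numbered 10 with median centring and 19 to 45 with each array left out, the 45 without control replicate 3 and 36 without Et1 replicate 2. The share of all tested genes under these settings is not given here, so these counts are not read as a result about the members. Members called by limma numbered 4 blocked by spike-in set and 0 under the other settings. Over all probe sets limma called 78, 44 with median centring, 40 with no filter, 7 without the intensity trend, 868 blocked by spike-in set and 4 to 229 with each array left out, the 229 without control replicate 3. Median centring moved the median of all tested genes to -0.0062, and leaving out each array gave 0.0333 to 0.0680. Without probe sets ending in _x_at or _s_at Mrpl38 stood at -0.09. The cause of these shifts was not tested, apart from fewer arrays making it easier not to overlap.

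With the replicate number as a block, limma called 567 probe sets and 0 members, where the smallest adjusted p was 0.0538, for Mrps17. Deviations of same-numbered arrays from their group means correlated at -0.12, 0.44 and 0.45 for numbers 1, 2 and 3. Et1 replicate 1 correlated best with control replicate 3, at 0.26, and Et1 replicate 2 also correlated with control replicate 1, at 0.33. The positive correlations all joined arrays of the same spike-in set, so they cannot show whether the numbers mark pairs. The numbers were not taken as pairs because no label ties them, although the series describes cells divided into treated and untreated cultures. The number of arrays limits the precision, and nothing in the labels gives the spread between animals.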
